A study of Mus musculus with 42 samples.

Results

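Prkci encodes protein kinase C iota, also called lambda in the mouse, and was the gene described here in 21 samples of mouse CD4+ T cells taken from the naive state to Th1 and Th2 memory. It was 1 gene of the 3230 that the arrays named, it was found by its symbol in the table that pairs reporters with genes, and it was measured by 1 reporter spotted at 2 positions of each array. The gene was chosen from its measured levels in these same samples, because it was low in memory Th1 cells and not in memory Th2 cells. Its own values are therefore given as a description, without a test. Protein kinase C iota and the zeta isoform from Prkcz are the atypical members of the protein kinase C family, which respond neither to calcium nor to diacylglycerol. They bind the scaffold proteins Par6 and Par3 and the small GTPase Cdc42 to set up cell polarity, and they act with the adaptor p62 upstream of NF-κB. In mice, loss of this kinase from T cells has been reported to impair Th2 responses.

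All cells derived from mice carrying a GFP transgene and the AND T cell receptor transgene, whose receptor recognises a pigeon cytochrome C peptide on I-Ek. Naive cells had the phenotype CD62L high, CD45RB high, CD44 low and CD25-. Effector cells had been stimulated in culture for 4 days with antigen-presenting cells in Th1 or Th2 conditions, and rested cells had spent 3 further days without those cells. Memory cells were rested cells recovered by flow sorting 4 to 12 weeks after transfer into hosts that had been thymectomised, lethally irradiated and given T cell-depleted bone marrow, so they alone had passed through an irradiated animal. The sources used here give neither the age and sex of the mice nor whether animals were pooled. The growth protocol names spleen for the naive cells and the source field names thymus. The memory Th2 samples are described as RM-Th2 but titled M-Th2, and they were grouped by title.

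Each of the 7 groups held 3 samples, and each sample had been read on 2 arrays, a and b, of 9600 spots. Nothing in the labels says that the samples of a group came from separate animals or cultures, so the spread and the p-values below cover these samples and may be technical. Within groups the levels of all reporters correlated at r = 0.893 to 0.974, arrays had median intensities between 5.74 and 12.99, and 26 to 378 spots per array were at 0. The CD4+ identity of the cells could not be checked, since none of the 14 CD4 T cell markers in the lists used here was among the named reporters. Of the Th2 cytokine genes Il4, Il5 and Il13 only Il13 was measured, and its mean level was 1.85 ± 0.40 in effector Th2 cells and 2.36 ± 0.70 in effector Th1 cells (SD, n = 3), with overlapping samples. In rested cells it was higher in the samples labelled Th1, 1.90 to 3.96, than in those labelled Th2, 1.23 to 1.70, against what the labels would give for a Th2 cytokine, and this difference of 1.43 did not pass the test over all reporters (adjusted p = 0.176, limma). Il13 group means ran from 1.34 in naive to 2.90 in rested Th1 cells, below the median reporter at 3.13. No background is given, so such dim values may be those of empty spots and do not settle the labels. In bulk RNA of this kind, fewer cells that express a gene and less RNA per cell cannot be told apart.

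The samples were not all independent of each other in the deposited values. Each sample holds 4 spot values per double-spotted reporter, 2 on each array. In 13 of the 210 pairs of samples these 4 values were the same multiple of each other for practically every reporter, with a median SD of the log2 ratio over the 4 spots of at most 7.78e-05, against at least 0.367 in every other pair. The 13 pairs all joined samples of the same number. They were Th1 and Th2 samples of the same stage for all 3 numbers, and naive samples 1 and 3 with memory samples 1 and 3 of both lineages. The 21 samples thus carried 10 distinct spot patterns. The agreement among the 4 Prkci spots of a memory Th1 sample was therefore also that of its memory Th2 partner and is no separate measurement. Rested and memory samples shared no pattern. Results that compare them are also given with 1 sample kept per pattern, an alternative chosen after seeing the data.

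By sample mean, Prkci was dimmer in memory Th1 cells than in any other group. Mean deposited intensities over the 4 spots were 0.362, 0.315 and 0.946 in memory Th1 samples 1, 2 and 3. In memory Th2 samples they were 13.5, 11.6 and 24.3. The ranges did not overlap, and the highest single memory Th1 spot, at 1.14, lay below the lowest memory Th2 spot, at 6.59. In naive cells the means were 30.6, 19.4 and 53.2, the brightest of the series.

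Effector Th1 samples had mean intensities of 10.2, 6.62 and 12.3, and effector Th2 samples 5.76, 4.44 and 6.41. Rested samples were dimmer again, at 2.57, 2.83 and 7.40 in Th1 and 3.82, 2.71 and 6.04 in Th2. The rested values of the lineages overlapped, while every effector Th1 sample was brighter than every effector Th2 sample. Every rested sample mean lay above every memory Th1 mean, but single rested spots did not: 0.57 in rested Th1 sample 1, 0.406 in rested Th1 sample 2, 0.847 in rested Th2 sample 1 and 0.388 in rested Th2 sample 2 lay within the memory Th1 range. Rested cells also had the least even spots, with a coefficient of variation over the 4 spots of 53.0% to 79.1%, against 5.95% to 29.3% in the other groups. Rested Th1 and Th2 samples of a number share a spot pattern, so their low spots and their unevenness are no separate measurements. No Prkci spot was at 0 in any sample, and the lowest, 0.178, was in memory Th1 sample 2. The files hold no background column and no detection call, so a low intensity cannot be told from the signal of an empty spot.

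**Figure D1:**
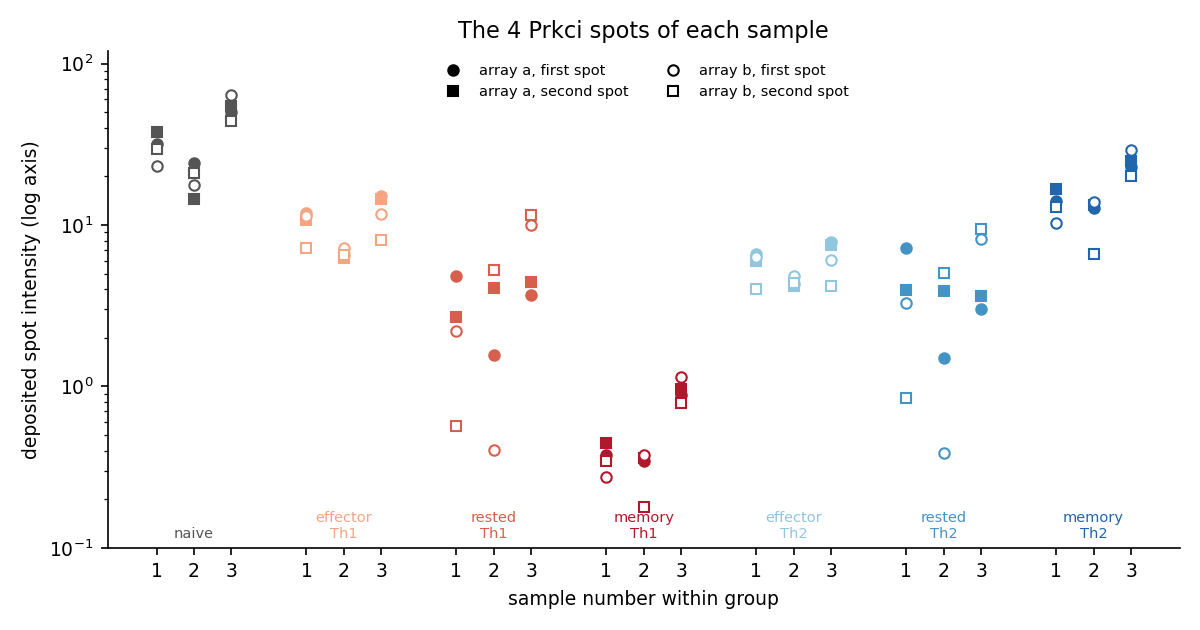
Deposited intensity of the 4 Prkci spots in each of the 21 samples, on a log axis without units; circles and squares are the first and second spot, filled symbols array a and open symbols array b. The memory Th1 spots lie between 0.178 and 1.14, a range that also holds 4 spots of rested samples, and the naive spots between 14.6 and 64.2. Rested Th1 and Th2 samples of a number share a spot pattern.

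On the scale used for comparisons, log2 of the quantile-normalised intensity plus 1, levels were 5.14, 4.51 and 5.51 in naive samples 1, 2 and 3 and 4.00, 3.68 and 4.94 in memory Th2 samples. They were 3.52, 3.05 and 3.56 in effector Th1, 2.75, 2.65 and 2.88 in effector Th2, 2.05, 1.88 and 2.55 in rested Th2, 2.01, 1.81 and 2.48 in rested Th1, and 0.42, 1.05 and 0.90 in memory Th1. From highest to lowest the group means ± SD (n = 3) were thus 5.05 ± 0.50, 4.21 ± 0.65, 3.37 ± 0.28, 2.76 ± 0.12, 2.16 ± 0.35, 2.10 ± 0.35 and 0.79 ± 0.33. Naive overlapped memory Th2, and rested Th2 overlapped rested Th1. The other neighbours in this order did not overlap. The reporter of median brightness stood at a mean level of 3.13, so Prkci was above it in naive and memory Th2 cells, close to it in effector cells and below it in rested and memory Th1 cells. Within a memory Th1 sample Prkci was brighter than only 0.321% to 2.04% of reporters, against 62.3% to 80.0% in memory Th2 and 74.2% to 85.3% in naive samples.

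**Figure D2:**
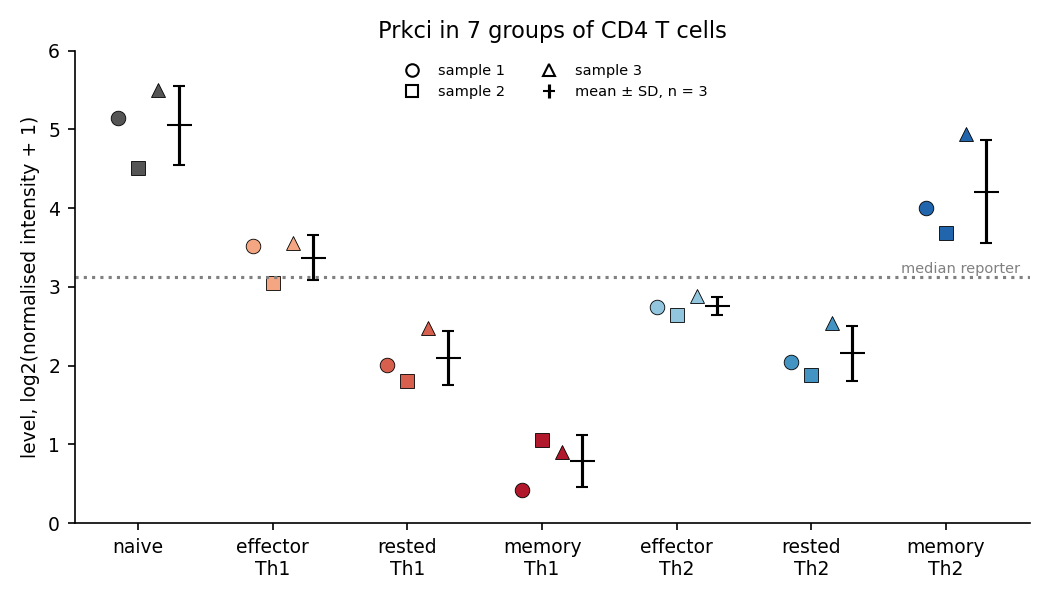
Prkci level, log2(normalised intensity + 1), in each sample of the 7 groups; symbols give the sample number, bars the mean ± SD of 3 samples and the dotted line the level of the median reporter, 3.13. Memory Th1 has the lowest samples, 0.42 to 1.05, and memory Th2 samples, 3.68 to 4.94, overlap the naive ones.

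Along the course of the experiment, Prkci was lower in effector than in naive cells in both lineages, by -1.68 in Th1 and -2.29 in Th2 (log2 differences from the limma fit over 7 groups, SE 0.33 for each difference of 2 groups). Both share the naive samples. From effector to rested cells the difference was -1.27 in Th1 and -0.60 in Th2, again lower in both. The lineages parted in the memory step, the difference of memory from rested cells. In Th1 the memory samples were lower by -1.31, a 2.47-fold lower level. On the series matrix values this step was -0.39 (SE 0.20), and with 16 in place of 1 added before the log it was -0.24 (SE 0.16). In Th2 the memory samples were higher by 2.05, a 4.14-fold higher level, and by 1.09 and 0.78 under these settings. The series matrix values are smaller than the deposited intensities, so the added 1 weighs more on them. Before it was added, their Prkci means were 0.459, 0.342 and 0.656 in rested Th1 samples 1, 2 and 3. In memory Th1 samples they were 0.042, 0.039 and 0.109. Against naive cells, memory Th1 stood at -4.26, or 19.2-fold lower, and memory Th2 at -0.85.

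The added 1 compresses the differences of so dim a reporter. In deposited intensities the rested sample was 7.11, 8.99 and 7.83 times as bright as the memory Th1 sample of numbers 1, 2 and 3, and the memory Th2 sample was 3.54, 4.30 and 4.01 times as bright as its rested partner. These ratios are not normalised between arrays. The naive sample was 84.6, 61.5 and 56.2 times as bright as the memory Th1 sample. The ratio was large for each of the 3 numbers.

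By sample number, the memory step of Th1 was -1.59, -0.75 and -1.58 and that of Th2 was 1.95, 1.81 and 2.39 on the log2 scale. Every Th1 value was below 0 and every Th2 value above it. The step of Th1 minus that of Th2 was -3.54, -2.56 and -3.97 for the 3 numbers and -3.36 ± 0.46 (SE) in the fit. With 1 sample kept per spot pattern it had the same direction for both choices of samples, with a memory step of Th1 of -1.58 or -0.75 and of Th2 of 1.81 or 2.17. The smaller Th1 value, -0.75, and the smaller Th2 value, 1.81, each rest on sample 2 alone. Memory sample 2 of each lineage also had the most spots at 0 of all samples, 378 and 271 on its arrays. Quantile normalization gave memory Th1 sample 2 a level of 1.05, the highest of the 3, although its deposited intensity was the lowest.

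Since memory Th1 and memory Th2 samples of a number share a spot pattern, their ratio is 1 value per pair. In the deposited series matrix, which holds the same intensities multiplied by a constant per array, memory Th2 was 34.8, 35.8 and 27.4 times as bright as memory Th1. These ratios are among the values that chose the gene, and their denominator is a signal that cannot be told from an empty spot. Rested Th1 over rested Th2 was 0.998, 1.01 and 1.00. A ratio within 1% of equality was found for 16.8%, 13.2% and 11.2% of reporters in these rested pairs. Effector Th1 over effector Th2 was 1.82, 1.50 and 1.80. So the paired values of the lineages were near equal after rest and differed before and after it.

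In the limma fit over all 4992 reporters, 0.0601% of reporters, 3 in number, were called for the difference between the memory steps at a false discovery rate of 0.05, and 0.2%, or 10 reporters, for memory Th1 against memory Th2. With the sample number as a block the first count was 52. By size, Prkci ranked 9th of 4992 for the difference between the steps and 3rd for memory Th1 against memory Th2, and nothing is read from these ranks because the gene was chosen by those values. In the memory step of Th1, 17.8% of reporters were called (470 higher, 417 lower; 1607 in all with the number as a block). In that of Th2, 3.91% were called (719 reporters with the block). All 3 memory Th1 samples were below all 3 rested Th1 samples for 11.9% of reporters. All 3 memory Th2 samples were above all 3 rested Th2 samples for 12%, and all 3 memory Th1 samples were below all 3 memory Th2 samples for 2.86%. Prkci met these 3 orderings, which follow from how it was chosen.

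**Figure D3:**
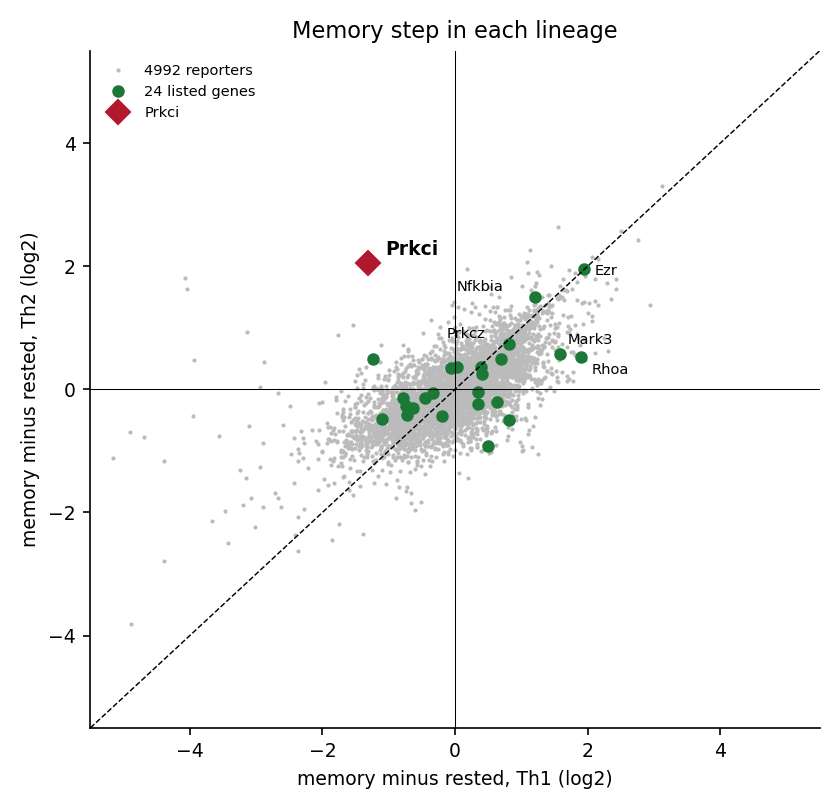
Memory minus rested level (log2) in Th1 on the horizontal and in Th2 on the vertical axis, with 1 grey point per reporter, green points for 24 genes of the lists used here and a diamond for Prkci; the dashed line marks equal steps. Prkci lies at -1.31 and 2.05, away from the diagonal cloud.

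Of the markers measured, 1 of 6 myeloid and 2 of 3 granulocyte ones were called between the memory lineages, against 0.2% of all reporters. Of 3 granulocyte markers measured, S100a9, a calcium-binding protein of neutrophils, and Ltf, lactoferrin, were lower in memory Th1 than in memory Th2 cells, by -2.75 (adjusted p = 0.000164, limma) and -1.37 (adjusted p = 0.0396), and Csf3r, the G-CSF receptor, differed by -0.0014. Of 6 myeloid markers, Lyz2, the lysozyme of macrophages and neutrophils, was lower by -1.98 (adjusted p = 0.00487). S100a9 also passed the test for the difference between the memory steps, at -2.64 (adjusted p = 0.0255). The summed normalised intensity of the 6 myeloid markers ran from 58.5 to 60.1 in memory Th1 and from 71.7 to 82.8 in memory Th2 samples, against 154 to 186 in naive samples. The sum of the 3 granulocyte markers ran from 130 to 171 and from 133 to 206, so these sums overlapped between the memory lineages. The 2 erythroid and platelet markers summed to 2.64 to 5.62 in memory Th1 and 6.09 to 7.14 in memory Th2. Neither of these 2 was called between the memory lineages. No marker was at 0 throughout a group.

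Marker sums moved with the memory step of Th1 as well. In rested Th1 samples the sums were 75.2 to 115 for the myeloid, 231 to 374 for the granulocyte, 10.97 to 15.30 for the erythroid and platelet and 39.3 to 94.4 for the 2 thymocyte markers. The memory Th1 range lay below the first 3 of these without overlap and, at 129 to 182, above the thymocyte one. In this step 2 of 6 myeloid, 2 of 3 granulocyte and 2 of 2 erythroid and platelet markers were called lower. Of the thymocyte markers, 1 of 2 was called higher. Over all reporters 17.8% were called, 470 higher and 417 lower. In the Th2 step, 1 myeloid marker was called lower and 1 thymocyte marker higher, against 3.91% of all reporters called. The rested Th2 sums, 70.7 to 88.5, 166 to 284 and 5.19 to 8.70 for the first 3 lists, overlapped those of memory Th2, and the thymocyte sum was 29.5 to 39.5 in rested and 154 to 199 in memory Th2. The part of these markers in the Prkci result was not tested.

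Prkcz, the other atypical kinase, did not show the pattern of Prkci. Its mean level was 2.66 ± 0.43 in memory Th1 and 2.66 ± 0.54 in memory Th2 cells (SD, n = 3), and it lay between 1.84 and 2.10 in the other 5 groups. All these Prkcz means were below the median reporter at 3.13. Such dim values may be those of an empty spot, so they do not settle how Prkcz behaved. Memory Th1 minus memory Th2 was 0.00 ± 0.35 (SE; adjusted p = 1.00, limma). Its memory step was 0.82 ± 0.35 in Th1 (adjusted p = 0.112) and 0.73 ± 0.35 in Th2 (adjusted p = 0.261), neither of which passed.

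The partners of the atypical kinases at the cell cortex were described from a list of 34 genes, of which 15 were measured. In the memory step of Th1, 3 of the 15 were higher and 1 was lower, against 17.8% of all reporters called, and the median difference was 0.39 against 0.09 over all reporters. Ezr, ezrin, which ties the membrane to actin, rose by 1.94 ± 0.31 (SE; adjusted p = 0.000302, limma). Rhoa, a GTPase of the actin skeleton, rose by 1.91 ± 0.44 (adjusted p = 0.00658). Mark3, a Par-1 kinase that atypical protein kinase C phosphorylates, rose by 1.58 ± 0.38 (adjusted p = 0.00798). These 3 calls held in every fit without 1 sample, with an adjusted p of up to 0.0495 for Mark3.

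Wwc1, the scaffold KIBRA that binds atypical protein kinase C, fell by 1.10 in the memory step of Th1 (SE 0.37, adjusted p = 0.0448, limma). The call was lost in 10 of the fits without 1 sample. It was also lost with median centring, no normalization or the 5th percentile subtracted, and on array b or either spot alone. In the memory step of Th2, only Ezr of the 15 was called, higher by 1.96 ± 0.31 (adjusted p = 0.000712, limma), against 3.91% of all reporters. Pard3, the Par3 scaffold, and Cdc42 passed in neither: Pard3 differed by -0.63 ± 0.34 and -0.31 ± 0.34, and Cdc42 by 0.34 ± 0.24 and -0.05 ± 0.24, in Th1 and Th2. With 1 sample kept per spot pattern, 1 or 0 of the 24 genes over all 4 lists was called in the memory step of Th1 and 0 in that of Th2, against 7 and 2 with all samples. The fits with 1 sample per pattern leave 1 sample in some groups, so their counts say little about these genes. With the sample number as a block, 10 and 2 were called. Over all 4992 reporters the block gave 1607 and 719 calls, against 887 and 195 without it. The 3 gained in Th1 were Prkcd, Il4ra and Ywhaz, the phosphoprotein-binding 14-3-3 zeta, which differed by -0.75 (adjusted p = 0.299 without and 0.00554 with the block, limma).

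**Figure D4:**
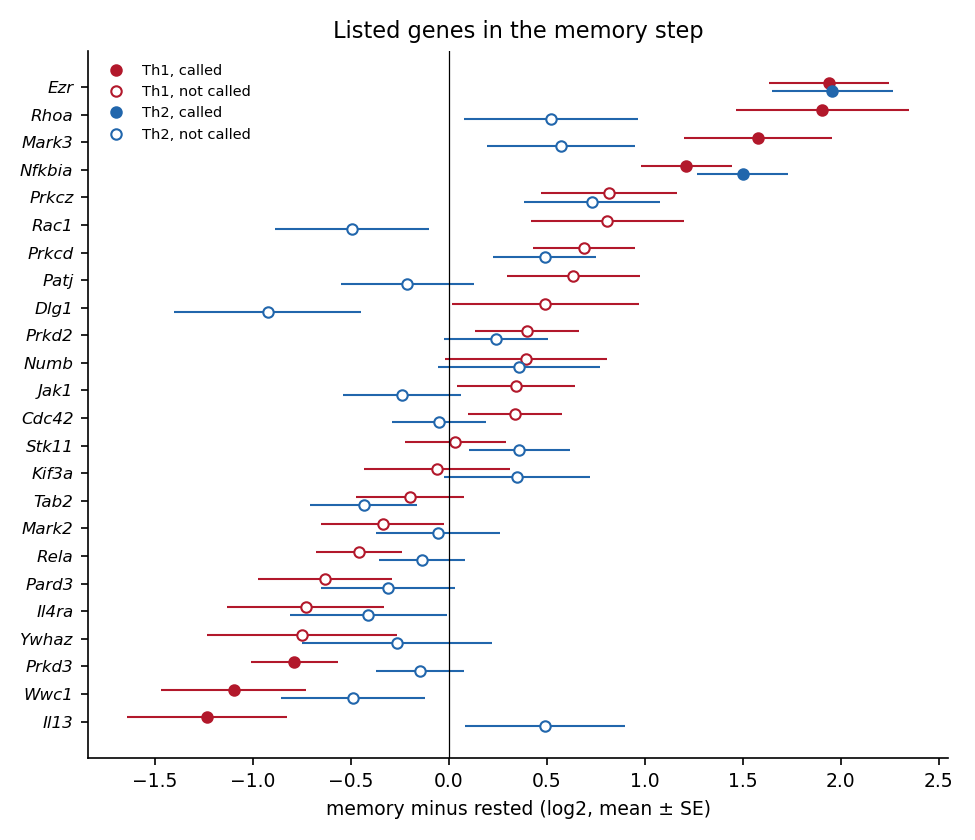
Memory minus rested level (log2, mean difference ± SE from limma, 3 samples against 3) of the 24 measured genes of the 4 lists, in Th1 (red) and Th2 (blue), with filled points for those called at a false discovery rate of 0.05. Ezr and Nfkbia are called in both lineages, at 1.94 and 1.21 in Th1 and 1.96 and 1.50 in Th2.

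At the earlier steps, 1 of the 15 polarity genes was called in effector Th1 and 2 in effector Th2 against naive cells, and 3 in the rest step of Th1 and 1 in that of Th2. Against naive cells, 9.88% of all reporters were called in effector Th1 and 9.13% in effector Th2. Ezr fell by 1.40 in effector Th1 (SE 0.31, adjusted p = 0.0042, limma) and by 1.50 in effector Th2 (adjusted p = 0.00232). The effector Th1 call of Ezr was lost with no normalization (adjusted p = 0.0652, limma). Kif3a, a kinesin subunit that carries Par3, rose by 1.48 ± 0.37 in effector Th2 (adjusted p = 0.0128). In the rest step, 16.2% of reporters were called in Th1 and 7.57% in Th2. Rhoa fell by 1.94 in resting Th1 (SE 0.44, adjusted p = 0.00433) and Rac1, a related GTPase, by 1.41 (adjusted p = 0.016), while Wwc1 rose by 1.56 ± 0.37 (adjusted p = 0.00547). Rhoa thus returned in the memory step to near its effector level, with group means of 5.14, 3.20 and 5.11 in effector, rested and memory Th1. Its rest and memory steps share the rested Th1 samples, as do those of Wwc1, so they are not separate results. In Th2 only Kif3a was called at rest, where it fell by 1.32 (adjusted p = 0.0324). The Kif3a calls were lost without 1 of the samples in 2 and 5 fits, and the Rac1 call in 3. Both Kif3a calls were also lost with no normalization and on array b or the second spot alone. The Kif3a rest call was further lost with median centring, on the first spot alone and with the spot pattern as a random block.

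Of 14 other genes of the protein kinase C and D families, 4 were measured. Prkd3, protein kinase D3, which acts below the diacylglycerol-dependent kinases, fell by 0.79 in the memory step of Th1 (SE 0.22, adjusted p = 0.0205, limma), and this call was lost without rested Th1 sample 1 or 3 or memory Th1 sample 2, with no normalization, and on array b or the first spot alone. It did not pass in Th2, and its rest step was upward in both lineages, by 1.21 ± 0.22 (adjusted p = 0.000716) and 1.03 ± 0.22 (adjusted p = 0.00532). The Th2 rest call of Prkd3 was lost with no normalization (adjusted p = 0.134, limma). Prkd2, the related protein kinase D2 of lymphocytes, fell by 2.35 from naive to effector Th1 (SE 0.26, adjusted p = 2.94e-06) and by 1.63 to effector Th2 (adjusted p = 0.000266). Prkcd, protein kinase C delta, differed by 0.69 ± 0.26 in the memory step of Th1 and by 0.49 ± 0.26 in that of Th2 and passed in neither, except in Th1 with the sample number as a block (adjusted p = 0.0403, limma). Its group means, from 1.72 in rested Th1 to 2.62 in naive cells, were below the median reporter and may be those of an empty spot.

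Of 23 genes between protein kinase C and NF-κB, 3 were measured. Nfkbia, the inhibitor that holds NF-κB in the cytoplasm and is itself induced by it, rose in both memory steps, by 1.21 ± 0.23 in Th1 (adjusted p = 0.00167, limma) and 1.50 ± 0.23 in Th2 (adjusted p = 0.00065). Rela, the p65 subunit, and Tab2, an adaptor of the kinase TAK1, passed in neither. The Nfkbia call in the Th2 step was lost with no normalization (adjusted p = 0.0738, limma). Nfkbia had fallen from naive to effector cells by 2.53 in Th1 (adjusted p = 1.75e-07) and 2.23 in Th2 (adjusted p = 1.15e-06).

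Of 13 genes of interleukin-4 signalling and Th2 differentiation, 3 were measured. Il13, a Th2 cytokine, fell by 1.23 in the memory step of Th1 (SE 0.41, adjusted p = 0.0422, limma), and the call was lost in 8 fits without 1 sample. On array a alone the difference was -2.25, on array b alone -0.21 (adjusted p = 0.815) and on the first spot alone -0.58 (adjusted p = 0.343). With Th1 sample 2 alone kept for its spot patterns the Il13 difference was 0.12, of opposite sign. Jak1, a kinase of the interleukin-4 receptor, fell by 2.19 and 2.20 from naive to effector Th1 and Th2 (adjusted p = 3.55e-05 and 3.82e-05) and rose at rest by 0.97 ± 0.30 (adjusted p = 0.0306) and 1.58 ± 0.30 (adjusted p = 0.0018). The Th1 rest call was lost in 3 fits without 1 sample (0.71 without effector Th1 sample 2), with median centring (0.56), with no normalization (0.56) and on array b alone. The Th2 rest call of Jak1 was also lost with no normalization (adjusted p = 0.136, limma). Il4ra, the receptor chain, differed by -0.73 in the memory step of Th1, which passed only with the sample number as a block (adjusted p = 0.0435, limma). Its group means, from 1.50 in memory Th1 to 2.33 in effector Th1 cells, were below the median reporter and may be those of an empty spot.

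None of the 24 list genes was called for memory Th1 against memory Th2 or for the difference between the memory steps, where 0.2% and 0.0601% of all reporters were called in the limma fit. When the spot pattern was taken as a random block instead, 8 of the 24 were called for the difference between the steps, beside 823 of all reporters. The count of 0 thus depends on how the shared patterns are treated.

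The genes whose levels over the 21 samples were most like those of Prkci were sought by Pearson's correlation among 1829 single-gene reporters at or above the median brightness. No gene exceeded r = 0.8. The 8 highest were Lyz2 at r = 0.77, Ctr9, a subunit of the PAF1 transcription complex, at 0.74, H3f3b, a gene of histone H3.3, at 0.74, Birc3, the ubiquitin ligase cIAP2, at 0.70, Selenok, a selenoprotein of the endoplasmic reticulum, at 0.68, Nudt4, a diphosphoinositol polyphosphate phosphatase, at 0.68, Morf4l2, a chromatin protein, at 0.67, and Satb1, a chromatin organiser of T cells, at 0.67. By Spearman's rank correlation Lyz2 was the lowest of these 8, at 0.49, and Selenok the highest, at 0.79. These values are a description over samples that share groups and spot patterns.

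Likeness to Prkci depended on the memory Th1 samples. Without them, r was 0.90 for Birc3, 0.90 for Nudt4 and 0.87 for Morf4l2, but 0.61 for Lyz2. Birc3 had means of 4.90, 5.67, 5.17 and 6.19 in rested Th1, memory Th1, rested Th2 and memory Th2, higher in memory than in rested cells of both lineages. Lyz2 had means of 3.09, 0.93, 3.57 and 2.92 in the same order, so it shared with Prkci the low memory Th1 value but not the higher memory Th2 value. None of the 8 genes passed the test for the difference between the memory steps (adjusted p from 0.283 to 0.998, limma).

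The lowest correlations with Prkci were -0.75 for Aaas, a nuclear pore protein, -0.74 for Dnajc15, a mitochondrial co-chaperone, -0.71 for Acot13, a thioesterase, and -0.65 for Gstp1, a glutathione transferase. All 4 had their lowest mean level in naive cells. Dnajc15, for example, stood at 3.66 ± 0.15 in naive, 5.78 ± 0.66 in memory Th1 and 4.16 ± 0.39 in memory Th2 cells (SD, n = 3).

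**Figure D5:**
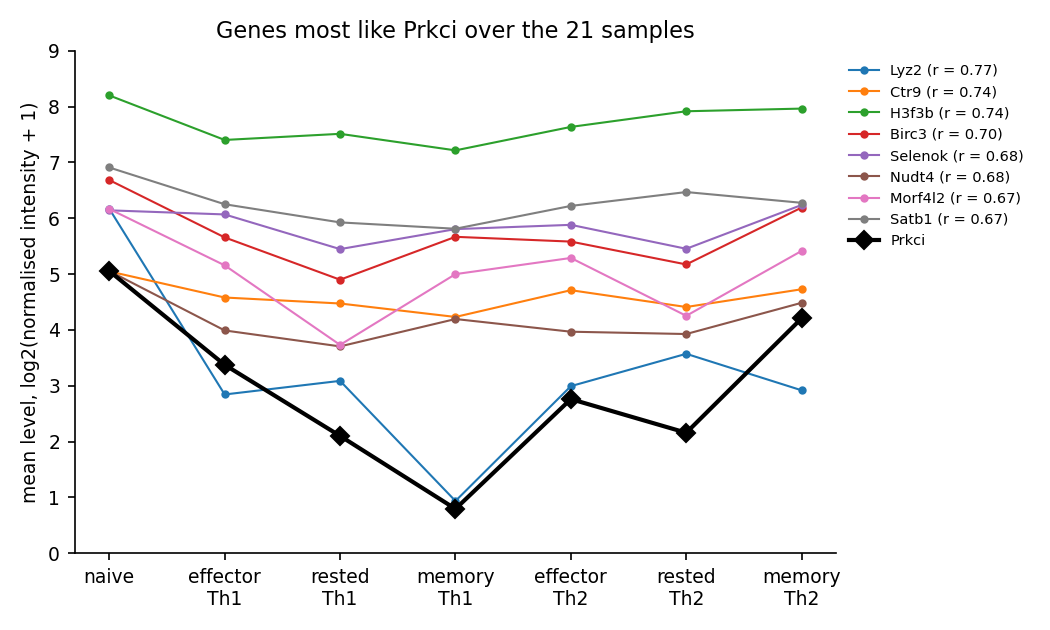
Mean level, log2(normalised intensity + 1), of Prkci (black diamonds) and of the 8 genes with the highest Pearson r to it, in the 7 groups of 3 samples. Lyz2 is the only line that reaches the level of Prkci in memory Th1, 0.93 against 0.79.

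The reporters listed directly before and after Prkci did not follow it. The order of listing may not be that of positions on the array. 2700049A03Rik correlated with Prkci at r = 0.07 and Sbno2 at r = 0.08 over the 21 samples. In memory Th1 and memory Th2 cells 2700049A03Rik had mean levels of 1.72 ± 0.77 and 1.62 ± 0.77, and Sbno2 2.09 ± 1.14 and 2.07 ± 0.91 (SD, n = 3). In both memory groups each of these reporters had spots at 0, and 2700049A03Rik had them in every group. The low r of reporters so dim says little about the Prkci spots.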

How the data were processed

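Per the labels' protocols, 5 to 15 µg of total RNA was labelled with 33P-dCTP, and each array was read in 1 channel. The authors deposited linear spot intensities. The sources used here do not give the image reader, the background subtraction or any earlier normalization, and the number of arrays limits the precision. In the deposited series matrix these intensities were multiplied, array by array, by 1 of 16 constants. A single gene was named for 3626 of 4992 reporters, 172 had several and 1194 are unnamed here. RefSeq (GRCm38.p6) held 3605 of the 3626. The brightest reporter stood for a gene.

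All 42 arrays were quantile-normalised, 1 was added, log2 was taken, and the 2 spots and then arrays a and b were averaged. Fold changes are on this scale and understate changes of dim genes. Group means were compared with limma 3.58.1 (lmFit and eBayes, 7 groups, R 4.3.3) and Benjamini-Hochberg adjustment over 4992 reporters per comparison. The pipeline was tested on simulated data with independent noise in each sample. That test held no shared spot patterns or pairing, so it does not cover their effect on the calls. Python 3.11.15 and matplotlib 3.10.9 drew the figures.

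Prkci and the lists of genes were chosen with earlier results of these data known. Named were Prkci, measured list members, the 8 most and 4 least correlated genes and the reporters listed next to Prkci. Deviations of samples with the same number correlated above 0.1 in every comparison. The values were 0.157, 0.139 and 0.254 for memory and rested Th1, and 0.337, 0.239 and 0.473 for Th2. For number 1 of rested and effector Th1, r was 0.148, below the 0.222 found with another number. Some pairs also share a spot pattern. The numbers were taken to pair samples, and the blocked fit is given where it moves a count. Unless a block is named, p-values and SEs are from fits without it and ignore this pairing. Alternatives changed the normalization, the pseudocount, the background, the filter on dim reporters, the arrays, spots and groups used, the block and the samples. The markers of CD4 T, CD8 T and NK and B cells had no measured member. Sums over 4 stromal and epithelial markers ran from 46.3 to 53.4 in memory Th1 and 40.3 to 56.8 in memory Th2.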

Additional observations from a re-analysis of the deposited data

Results flagged for a closer look

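The memory step of Prkci, memory minus rested level, ran in opposite directions in the lineages: every memory Th1 sample was below every rested Th1 sample and every memory Th2 sample above every rested Th2 sample. The step of Th1 minus that of Th2 was -3.36 on the log2 scale. The difference was not tested, because the gene was chosen by it.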

How the results depend on the processing

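The direction of the Prkci memory steps and of their difference held in all 35 settings run for each. These settings reuse the samples by which the gene was chosen, so the kept direction describes the processing and is no support for the pattern. Without 1 sample at a time the step of Th1 ran from -1.45 to -1.12, that of Th2 from 1.68 to 2.31 and the difference from -3.62 to -2.99. The counts of called reporters ran from 555 to 923, 94 to 305 and 1 to 26, and of called list genes from 4 to 7, 2 to 3 and 0 to 0. With the sample number as a block, 1607, 719 and 52 reporters were called for the Th1 step, the Th2 step and the difference, and no called list gene lost its call, while list genes called in the Th1 step went from 7 to 10. The settings that moved a value were as follows, in that order. The series matrix values, on which the added 1 weighs more, gave Prkci -0.39, 1.09 and -1.48, and 12 reporters for the difference. A pseudocount of 16 gave -0.24, 0.78 and -1.01, and 20 reporters. Subtracting the 5th percentile gave a Prkci difference of -3.99. Median centring gave 103 reporters for the Th2 step and 10 for the difference. No normalization gave 427, 39 and 14 reporters and 4 and 1 list genes. Array b alone gave 576, 127 and 0 reporters and 4 list genes for Th1. The first spot alone gave 1 reporter for the difference, as did the second. Reporters at or above the median gave 6, and there Prkci and the list had no value, as Prkci was below the median. Only rested and memory groups in the fit gave 497, 67 and 0. The spot pattern as a random block gave 823 reporters and 8 list genes for the difference. With 1 sample per spot pattern, chosen after seeing the data, Th1 samples 1 and 3 gave 54, 0 and 0 reporters and 1 and 0 list genes, and Th1 sample 2 gave 1, 1 and 0 reporters, 0 list genes, -0.75 for the Prkci step of Th1 and 0.12 for Il13, of reversed sign. These fits use fewer samples. Of 30 called results of list genes, 20 kept their call without any 1 sample, and none passed with Th1 sample 2 alone kept for its spot patterns. A spot's brightness over background is unknown, which limits all memory Th1 values of Prkci.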
